A study of Mus musculus with 2 samples.

Results

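The histone cluster genes were examined in expandable hepatoblasts, mouse liver progenitor cells kept dividing in culture. They were taken as every gene probe of the array whose gene name begins with Hist and a digit, which gave 45 of 41158 gene probes and 38 of 27366 gene names. The rule used names alone and no measured value. The cells were of strain C57BL/6 and came from liver. The groups were cells at passage 20, called late passage in the labels, and cells at passage 5, called early passage, with 1 array each. Cells of both passages were grown in a defined medium with EGF at 10 ng/ml, CHIR99021 (an inhibitor of the kinase GSK3) at 3 µM, E-616452 (which blocks signalling by TGF-beta receptors) at 2 µM, lysophosphatidic acid (LPA) at 5 µM, sphingosine 1-phosphate (S1P) at 0.5 µM and nicotinamide at 5 mM. They were grown on Matrigel or laminin, and the labels do not say which was used for which array. The labels state that the passages stem from independent experiments, so passage and experiment cannot be told apart, and no value below has a replicate check.

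Histone proteins package DNA into nucleosomes: H2A, H2B, H3 and H4 form the core around which DNA winds, and the linker histone H1 binds the DNA between cores. Most genes for them lie in clusters and are transcribed while a cell copies its DNA. Their mRNAs usually lack introns and end in a conserved stem-loop in place of a poly(A) tail, although many of these genes can also make longer mRNAs with a poly(A) tail. Replacement variants encoded outside the clusters, such as H2A.Z and H3.3, are made throughout the cell cycle. The labels name an amplification kit for 1-colour arrays, which as general background starts from an oligo-dT primer. The share of each histone mRNA that such a primer copied was not measured here.

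A level is the log2 signal of a probe after the 75th percentile of that array's gene probes was subtracted, and a difference is passage 20 minus passage 5. Well above background were 18969 probes (46.1%) at passage 20 and 18738 (45.5%) at passage 5. A probe counted as measured if it was well above background on at least 1 array. One above background on only 1 array has a bound, written as at least N-fold, against the higher of its own value and the lowest level well above background on the other array (-3.17 at passage 20, -3.32 at passage 5). Over 108 probes printed in repeat spots, the spot SD of a difference had a median of 0.081 and a 95th percentile of 0.227. That is technical error within these arrays only, and each histone probe was printed in 1 spot. No histone spot was flagged or saturated. As a check of the label, 13 of 16 hepatoblast markers were measured, while Alb, Ttr and Dlk1 were not well above background. Within 2-fold were 8 of the 13, among them Afp, Hnf4a, Foxa2, Krt8 and Krt18. The other 5 were Cdh1 (2.89-fold higher at passage 20), Lgr5 (2.24-fold higher, with another probe at -0.73), Prox1 (2.02-fold higher), Epcam (2.24-fold lower) and Gpc3 (at passage 5 only, at least 9.49-fold lower), against 10.5% of all measured gene names at 2-fold either way. Of the markers of other cells, 1 of 5 fibroblast and stellate genes was measured (Dcn, at passage 5 only, at least 15.9-fold lower at passage 20), 0 of 4 endothelial genes, 2 of 4 leukocyte genes (Cd68 at 0.34 and Lyz2 at -0.02, a bound) and 1 of 6 germ cell genes.

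Most histone cluster probes gave close values on both arrays. Of the 45 probes, 39 were measured: 1 was at least 2-fold higher at passage 20 (Hist1h1d, a linker histone), 2 were at least 2-fold lower (Hist1h1c, a linker histone, and Hist3h2ba, an H2B gene), and 36 stayed within 2-fold. Among all 20178 measured gene probes, 5.77% were 2-fold higher and 4.71% were 2-fold lower, 10.5% either way. The 3 histone probes of 39 outside 2-fold were no larger a share than that. The median difference of the 39 measured probes was 0.39, against 0.10 over all measured gene probes, with 25 probes above 0 (64.1%) and 14 below it. Of all measured gene probes, 58.9% were above 0. By gene name, taking the brightest probe of each, 34 of 38 were measured and the median was 0.38. The differences split by histone class and by where along the transcript a probe lies. With total RNA of whole cultures, fewer cells of a kind and less RNA per cell cannot be told apart.

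**Figure D1:**
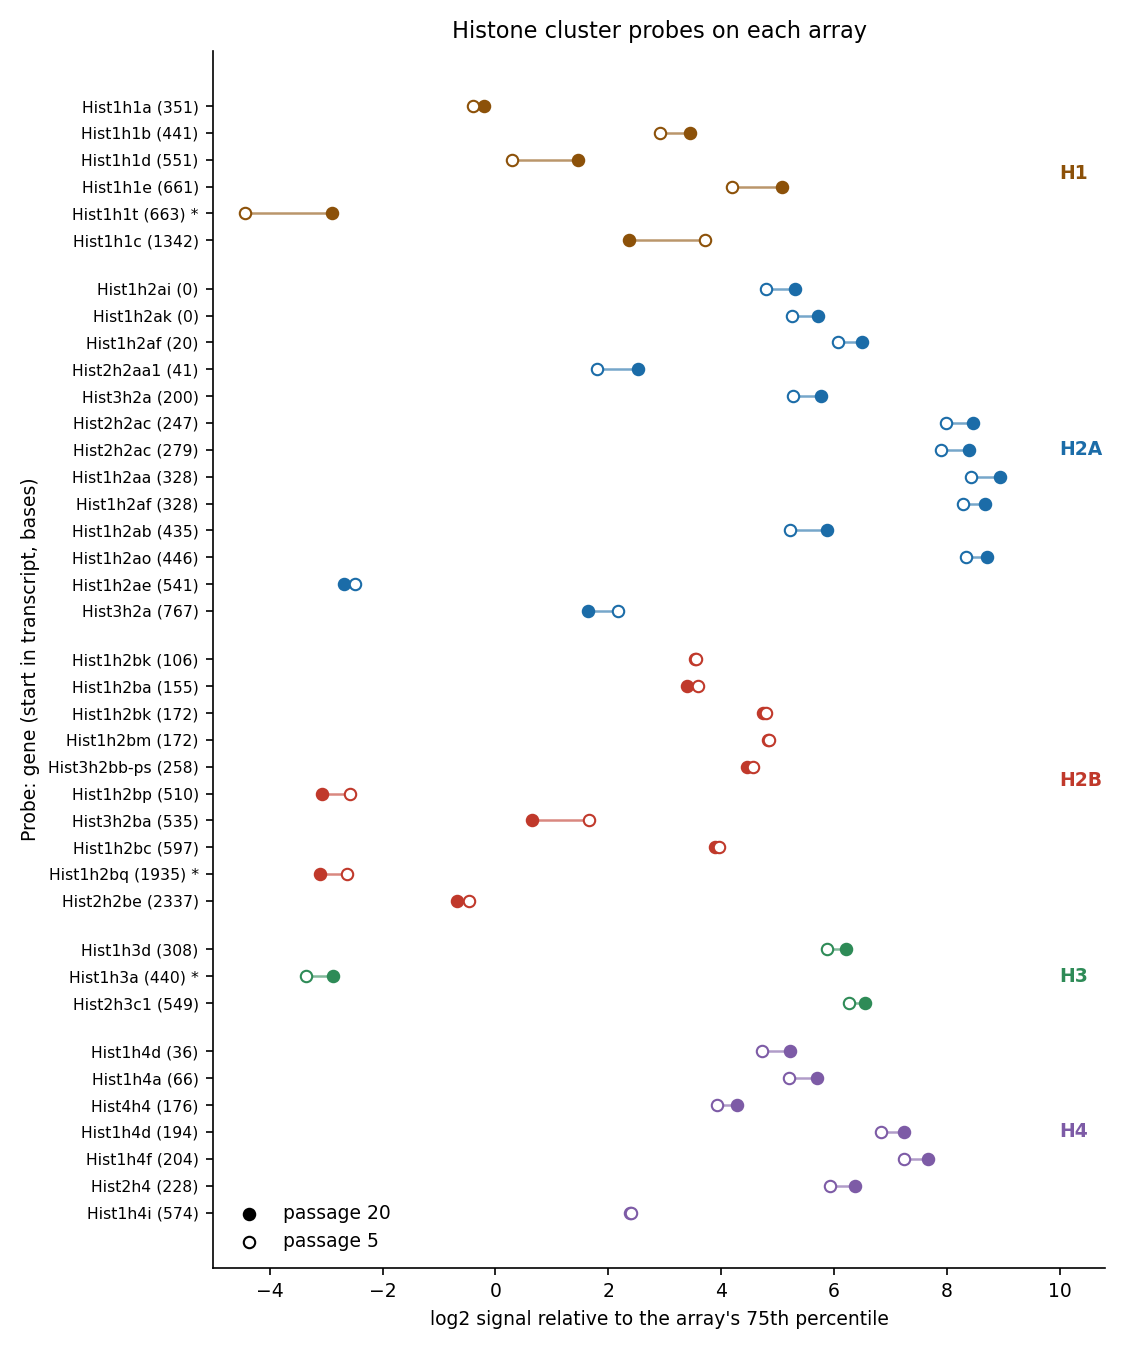
Level of each of the 39 measured histone cluster probes at passage 20 (filled) and passage 5 (open), as log2 signal relative to the array's 75th percentile, by histone class and by start in the transcript (in brackets, bases). An asterisk marks the 3 probes above background on 1 array only, drawn at their measured values; the H2A, H3 and H4 probes starting before base 500 lie to the right at passage 20, while the H2B probes lie at or left of passage 5.

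Linker histone genes gave the largest differences in both directions. Hist1h1d had a level of 1.46 at passage 20 and 0.29 at passage 5, a difference of 1.17 or 2.25-fold higher. The difference was under 2-fold with median centring (0.86) and spike-in scaling (0.95). Its second probe, starting at base 2302 of the transcript, was well above background on neither array. Hist1h1e had 5.08 at passage 20 and 4.20 at passage 5, 1.84-fold higher. Hist1h1d and Hist1h1e encode H1 subtypes of somatic cells. Hist1h1b had 3.44 at passage 20 and 2.91 at passage 5, a difference of 0.53. Hist1h1a had -0.20 at passage 20 and -0.40 at passage 5, a difference of 0.21. Hist1h1c went the other way, with 2.37 at passage 20 against 3.72 at passage 5, 2.55-fold lower. The testis linker histone Hist1h1t was above background at passage 20 only, at -2.90 against -4.44 at passage 5, at least 1.33-fold higher. Of the 6 measured H1 probes 5 were above 0, against 58.9% of all measured gene probes. Under median centring and spike-in scaling 4 were, as Hist1h1a turned to -0.10 and -0.01. The probes that carry these calls bind different parts of their transcripts. That of Hist1h1d starts at base 551 (chr13:23647452-23647511, plus strand, mm9), that of Hist1h1e at base 661 (chr13:23713707-23713766, minus strand) and that of Hist1h1c at base 1342 (chr13:23832018-23832077, plus strand, first 30 of 60 bases shown). The probe of Hist1h1e ends in the letters TAA, in capitals, and that of Hist1h1c has 35% G and C, against 55% in that of Hist1h1d.
Hist1h1d: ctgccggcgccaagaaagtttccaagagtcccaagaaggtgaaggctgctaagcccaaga
Hist1h1e: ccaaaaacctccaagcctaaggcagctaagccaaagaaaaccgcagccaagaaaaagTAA
Hist1h1c: tacacttgctttgccttattttgatcagca

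The H2A genes whose probes lie in the first 500 bases were all higher at passage 20, each by less than 2-fold. H2A is the core histone that pairs with H2B. There were 11 such probes, and their differences ran from 0.38 to 0.73 with a median of 0.49. Hist2h2aa1 had 2.53 at passage 20 and 1.80 at passage 5, the widest gap of the 11. Hist1h2ab followed with 5.87 at passage 20 and 5.22 at passage 5, a difference of 0.65. The gaps of the others lay between 0.38 and 0.52. Hist1h2aa had 8.94 at passage 20 and 8.43 at passage 5. Hist1h2ao had 8.72 at passage 20 and 8.34 at passage 5, and Hist1h2af at base 328 had 8.67 at passage 20 and 8.29 at passage 5. That of Hist1h2af, at 0.38, was the smallest gap of the 11. The pair of Hist2h2ac probes share a run of 51 bases and had 8.47 and 8.39 at passage 20 against 7.99 and 7.90 at passage 5. Hist1h2af at base 20 had 6.50 at passage 20 and 6.06 at passage 5. These pairs of probes of 1 gene gave nearly the same difference. Hist1h2ak had 5.72 at passage 20 and 5.25 at passage 5, and Hist1h2ai had 5.32 at passage 20 and 4.79 at passage 5. The last of the 11 was Hist3h2a at base 200. No probe of the 11 was lower at passage 20 under any of the other processings tried, but several gaps shrank. In the authors' deposited table that of Hist1h2ao was 0.12, of Hist1h2af at base 328 0.16 and of Hist1h2aa 0.21. Those of Hist1h2ab (0.58) and Hist2h2aa1 (0.68) changed little there. Under median centring Hist1h2af at base 328 and Hist1h2ao each had 0.07, which is under the median repeat-spot SD.

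Signals of H2A probes cannot all be assigned to 1 gene. Hist1h2aa is a testis H2A gene, yet its probe was well above background on both arrays, while 5 of 6 germ cell markers (Ddx4, Dazl, Sycp3, Tnp1 and Stra8) were not well above background and Prm1 was above it at passage 5 only, at least 1.12-fold lower at passage 20. The probe matches that of Hist1h2af at 47 of 60 positions, with a run of 44 shared bases, and the 13 differing positions, in capitals, all lie from position 45 to 60, counted from 1 at the 5′ end. The probes map to chr13:24026659-24026718 and chr13:23626108-23626167, both on the plus strand of mm9. How much of the Hist1h2aa signal came from the shared run was not tested. The probe of the testis H2B gene Hist1h2ba was also well above background on both arrays. It shares at most 14 bases in a run with another histone probe. Over all 45 probes, 16 share a run of at least 20 bases with another histone probe, and 17 are listed by the array with 2 or more RefSeq transcripts.
Hist1h2aa: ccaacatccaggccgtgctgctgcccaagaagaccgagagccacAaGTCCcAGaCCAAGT
Hist1h2af: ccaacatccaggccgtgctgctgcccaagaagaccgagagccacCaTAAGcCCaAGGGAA

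Hist3h2a, an H2A gene of the small Hist3 cluster, gave opposite differences at its 2 probes. At the probe starting at base 200 (chr11:58768387-58768446, plus strand, mm9) the level was 5.78 at passage 20 and 5.28 at passage 5, a difference of 0.49. At the probe starting at base 767 (chr11:58768954-58769013, plus strand) it was 1.64 at passage 20 and 2.16 at passage 5, a difference of -0.52. The downstream difference was thus 1.02 below the upstream one, and the pair kept these signs under each of the other processings tried. Neither probe shares more than 8 bases in a run with another histone probe, so the pair is shown in full for the upstream probe and by its first 30 bases for the downstream one. In the other genes with both probes measured (Hist1h2af, Hist1h2bk, Hist1h4d and Hist2h2ac), both probes start before base 500, and their differences lay within 0.08 of each other.
Hist3h2a, base 200: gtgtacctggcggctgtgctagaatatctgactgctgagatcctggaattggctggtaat
Hist3h2a, base 767: aaggttctggtttagatgctagtgtttcta

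H3 and H4 form the tetramer at the centre of the nucleosome, and their upstream probes were also higher at passage 20, by less than 2-fold. The 6 H4 probes starting before base 500 had differences of 0.35 to 0.50. Hist1h4f had 7.67 at passage 20 and 7.24 at passage 5. Hist1h4d had 7.23 at passage 20 and 6.83 at passage 5 at base 194, and 5.22 at passage 20 and 4.73 at passage 5 at base 36. These genes encode the same H4 protein, and the probes of Hist1h4f and Hist1h4d (base 194) share a run of 50 bases. Hist2h4 had 6.37 at passage 20 and 5.93 at passage 5. Hist1h4a had 5.70 at passage 20 and 5.21 at passage 5, and Hist4h4 at base 176 had 4.28 at passage 20 and 3.94 at passage 5. No H4 probe of this stretch was lower at passage 20. Hist1h4i, whose probe starts at base 574, was level, with 2.39 at passage 20 and 2.40 at passage 5. Among H3 genes, Hist1h3d had 6.22 at passage 20 and 5.87 at passage 5. Hist2h3c1, probed at base 549, had 6.55 at passage 20 and 6.27 at passage 5. Hist1h3a was above background at passage 20 only (-2.87, against -3.35 at passage 5), at least 1.36-fold higher. Over H2A, H3 and H4, 19 of 19 probes starting before base 500 were above 0, against 58.9% of all measured gene probes. Their median was 0.47 and their range 0.34 to 0.73. The count was 19 of 19 under every other processing, and 18 of 18 once probes with a bound were left out. These probes share sequence and in part the same transcripts, so they are not 19 separate measurements. They were also grouped by a division at base 500 that was chosen with the values known.

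H2B, the partner of H2A in the nucleosome, did not share this direction. None of the 10 measured H2B probes was above 0, against 58.9% of all measured gene probes, and their median was -0.15. Hist1h2bp turned to 0.07 under normexp background correction. Hist1h2bm had 4.83 at passage 20 and 4.85 at passage 5. Hist1h2bk had 4.75 at passage 20 and 4.79 at passage 5 at base 172, and 3.54 at passage 20 and 3.55 at passage 5 at base 106. All of these differences were smaller than the median repeat-spot SD. The testis gene Hist1h2ba had 3.39 at passage 20 and 3.59 at passage 5. The pseudogene Hist3h2bb-ps had 4.46 at passage 20 and 4.56 at passage 5. These 5 probes, all starting before base 500, had differences of -0.20 to -0.01 with a median of -0.04. Their range did not overlap that of the 19 H2A, H3 and H4 probes of the same stretch. The division at base 500 that makes these groups was chosen with the values known. Against the median of all gene probes, the median of the 5 lay 0.12 to 0.20 lower over the processings tried. That of the other 19 lay 0.29 to 0.39 higher. Scalings by a constant could hardly change these distances. The 5 are not independent either. In the best alignment, the Hist3h2bb-ps probe has 55 of 60 bases in common with that of Hist1h2bk (base 172) and 54 with that of Hist1h2bm. It is listed with 2 RefSeq transcripts, so its signal cannot be assigned to the pseudogene alone. The probes of Hist1h2bk (chr13:22127928-22127987, plus strand, mm9) and Hist1h2bm (chr13:21814139-21814198, plus strand) match at 58 of 60 positions, with the 2 differing bases in capitals.
Hist1h2bk: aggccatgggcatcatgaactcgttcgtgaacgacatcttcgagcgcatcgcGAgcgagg
Hist1h2bm: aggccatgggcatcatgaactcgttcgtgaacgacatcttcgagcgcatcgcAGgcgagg

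The H2B probes further downstream included the only 2-fold call among core histones. Hist3h2ba had 0.65 at passage 20 and 1.66 at passage 5, 2.01-fold lower, a difference of -1.01 that was -0.98 and so under 2-fold with normexp background correction. Its probe starts at base 535 (chr11:58762948-58763007, plus strand, mm9), and the first 30 of its 60 bases are shown. The other measured members differed less. Hist1h2bp had -3.07 at passage 20 and -2.57 at passage 5. Hist1h2bq was above background at passage 5 only, with -3.11 at passage 20 and -2.62 at passage 5, at least 1.40-fold lower. Hist2h2be had -0.69 at passage 20 and -0.46 at passage 5, and Hist1h2bc had 3.88 at passage 20 and 3.95 at passage 5. Neither array had Hist1h2be or Hist2h2bb well above background.
Hist3h2ba: aggggggtgttgtactggaccttgggatcc

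**Figure D2:**
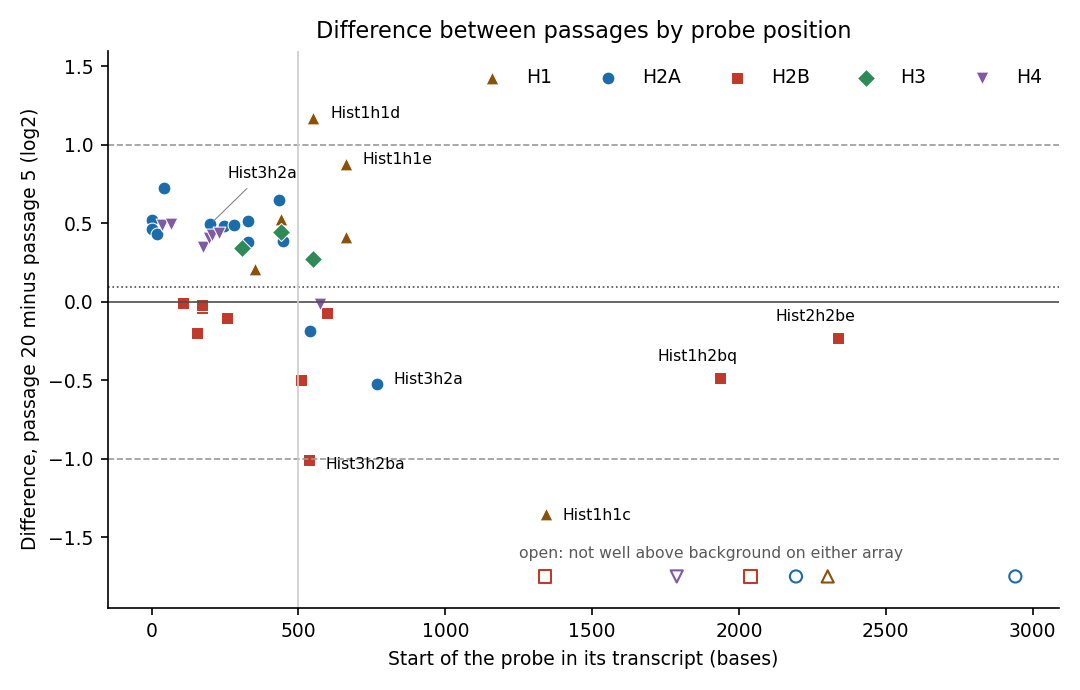
Difference between passages (log2, passage 20 minus passage 5) of each histone cluster probe against the start of the probe in its transcript (bases), by class; dashed lines mark 2-fold, the dotted line the median of all measured gene probes, and the grey vertical line base 500. Before base 500 the H2A, H3 and H4 probes sit between 0.34 and 0.73 and the H2B probes between -0.20 and -0.01, while 6 probes further downstream, drawn open at the bottom, were well above background on neither array.

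Probe position and base composition went together in this family. The division at base 500 was chosen after the values were seen. All 26 probes starting before it were measured, and 13 of 19 starting at or after it, against 20178 of all 41158 gene probes. Upstream probes had a median of 58.3% G and C (40 to 75%), and downstream probes a median of 36.7% (23.3 to 68.3%). Of the 9 measured core histone probes of the downstream stretch 1 was above 0 (Hist2h3c1, at 0.27), against 58.9% of all measured gene probes. The count was 0 of 9 under median centring, where Hist2h3c1 had -0.04, and 3 of 9 under normexp background correction. The median of the 9 was -0.23. Of the 9, 5 were H2B probes, with 0 above 0, and the 4 H2A, H3 and H4 probes had a median of -0.10. H2A was represented there by Hist1h2ae, with -2.68 at passage 20 and -2.49 at passage 5, beside Hist3h2a, while Hist1h2ac and Hist1h2al were not well above background. The 26 histone probes with at least 50% G and C had a median difference of 0.43, against -0.03 for all 3672 measured gene probes of that composition. The 13 measured histone probes with less had a median of -0.19 (4 above 0, 9 below it), against 0.12 for all 16506 such gene probes (61.5% above 0). Among 890 other gene probes with at least 50% G and C and a mean level of at least 2.5, the median was 0.01. The 26 histone probes were not limited to that level and include dimmer ones such as Hist1h1a. Whether position or composition accounts for the differences was not tested, and exon or UTR positions of the probes were not analysed here.

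Letters that occur in the histone mRNA stem-loop were found in 4 histone probes, each time as spelled and not as the reverse complement. GGCTCTTTT, searched on both strands, was present in 3 of 45 histone probes (Hist1h1a, Hist1h2ab and Hist1h3a) and in 34 of all 41158 gene probes (0.0826%). TTCAGAGCC, which overlaps it by 2 letters where both stand in 1 stem-loop, was present in 2 histone probes (Hist1h2ae and Hist1h3a) and in 40 of all gene probes (0.0972%). Of the genes named, Hist1h2ab had a difference of 0.65, Hist1h1a of 0.21, Hist1h3a of at least 0.45 and Hist1h2ae of -0.19. In Hist1h1a other letters than those of the stem-loop follow. The stretches, with the letters in capitals, are the first 30 bases of the probe of Hist1h1a (chr13:23855888-23855947, plus strand), the last 30 bases of the probes of Hist1h2ab (chr13:23843392-23843451, plus strand, mm9) and Hist1h3a (chr13:23853756-23853815, minus strand), and the first 30 of that of Hist1h2ae (chr13:23662489-23662548, minus strand).
Hist1h1a: cggcgctgctGGCTCTTTTaagctgaacaa
Hist1h2ab: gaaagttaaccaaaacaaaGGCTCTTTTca
Hist1h3a: aattaaccaaaGGCTCTTTTCAGAGCCaca
Hist1h2ae: cttTTCAGAGCCattcacttaattcagtaa

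The clusters differed in their medians and in which classes and probe positions they hold. Of the 32 probes with Hist1 names 28 were measured, with a median of 0.40. Of these 32, 31 map to chromosome 13 and that of Hist1h2bp has no mapped position. The probe of Hist1h2al lies apart from the others, at chr13:51295494-51295553 (mm9). The Hist2 cluster on chromosome 3 had 6 of 7 probes measured, with a median of 0.46. The 4 probes of the Hist3 cluster on chromosome 11, all measured, had a median of -0.31, with Hist3h2a at base 200 as the only one above 0. Hist4h4 on chromosome 6 had 1 of 2 probes measured. The Hist3 probes are 1 upstream H2A, 1 downstream H2A, 1 upstream H2B and 1 downstream H2B probe, so cluster, class and position cannot be told apart in them. The upstream H2B probe, that of Hist3h2bb-ps, closely matches probes of Hist1h2bk and Hist1h2bm, so its signal cannot be assigned to this cluster alone.

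Promoter sequences from RefSeq (GRCm38.p6, 250 bases before to 50 after the start) were found for 32 of the 38 genes. TATAAA, searched on both strands, was present in 20 of the 32 (62.5%), against 14.2% of all 27025 promoters. CCAAT, on both strands, was present in 29 of the 32 (90.6%), against 37.9% of all. It was found in every H1, H2A, H2B and H3 promoter of the 32, but in 2 of 5 H4 promoters. AAACACA, letters known from H1 promoters and also searched on both strands, was present in 5 of 6 H1 promoters, in 4 of the other 26 and in 7.14% of all. The promoters of the 3 linker histone genes with the largest measured differences are printed with these letters, or their reverse complement, in capitals: Hist1h1d (chr13:23554782-23555081, plus strand), Hist1h1e (chr13:23622509-23622808, minus strand) and Hist1h1c (chr13:23738557-23738856, plus strand), all in GRCm38.p6. Hist1h1d and Hist1h1e have TATAAA at -26 and -27 and CCAAT at -51 and -52 from the start, in that order of genes. Hist1h1c has CCAAT at -54 and AAACACA at -112 but not the exact letters TATAAA in this window. Its sequence holds the similar letters tatatata between CCAAT and the start, which the search did not count. Nothing follows from these letters about binding.
Hist1h1d: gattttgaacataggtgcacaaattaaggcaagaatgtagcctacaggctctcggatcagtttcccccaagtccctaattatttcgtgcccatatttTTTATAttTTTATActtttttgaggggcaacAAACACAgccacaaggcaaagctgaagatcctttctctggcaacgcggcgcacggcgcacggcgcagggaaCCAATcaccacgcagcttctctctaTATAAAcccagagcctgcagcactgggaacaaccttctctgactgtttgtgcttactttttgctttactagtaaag
Hist1h1e: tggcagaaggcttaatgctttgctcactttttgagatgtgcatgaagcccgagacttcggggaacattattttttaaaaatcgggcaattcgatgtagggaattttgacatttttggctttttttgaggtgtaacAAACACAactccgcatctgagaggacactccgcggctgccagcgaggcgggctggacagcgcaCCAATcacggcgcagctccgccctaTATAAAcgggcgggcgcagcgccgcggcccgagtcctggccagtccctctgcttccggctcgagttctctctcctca
Hist1h1c: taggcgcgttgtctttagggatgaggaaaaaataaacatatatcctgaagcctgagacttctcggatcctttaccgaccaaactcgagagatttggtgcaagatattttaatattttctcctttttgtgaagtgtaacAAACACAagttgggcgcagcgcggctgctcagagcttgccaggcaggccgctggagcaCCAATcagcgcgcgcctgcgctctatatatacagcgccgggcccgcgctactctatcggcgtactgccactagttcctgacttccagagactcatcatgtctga

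Genes that make, process and deposit histones were set beside the clusters, by the brightest probe of each gene. Among all 13392 measured gene names, 5.06% were 2-fold higher and 5.41% were 2-fold lower, the median was 0.09 and 58.6% were above 0. Of 22 listed genes for histone mRNA processing and control, 20 were measured, 1 was 2-fold higher and 0 lower, with a median of 0.20. Slbp, which binds the stem-loop, had 3.58 at passage 20 and 3.08 at passage 5, a difference of 0.50. Npat, which activates transcription at the clusters, had -0.13 at passage 20 and 0.18 at passage 5, with probes from -0.31 to 0.00. Zfp473, a zinc finger protein of the processing machinery, was at least 2.04-fold higher at 1 of 2 probes, Lsm1 was at 0.65, Casp8ap2 at 0.55 and Srrt at -0.49.

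Histone chaperones hold free histones and place them on DNA. Of 30 listed, 29 were measured and 0 reached 2-fold either way by the brightest probe, with a median of 0.18. Other probes of Ipo4 (1.36), Atrx (1.11) and Dnajc9 (1.00) were 2-fold higher, and the lowest other probe was that of Anp32e (-0.74). By the brightest probe, the largest differences were those of Dnajc9 (0.78), Rbbp4 (0.76, with another probe at -0.21), Hira (-0.68, with another probe at 0.81), Asf1b (0.64) and Mms22l (0.60). DNA replication genes had a median of 0.27, and of 46 measured 39 were above 0 (84.8%, against 58.6% of all measured gene names). One of them, Ccne2 (cyclin E2), was 2.61-fold higher and 0 were 2-fold lower. Rfc3 (0.91), Gins3 (0.89), Ccne1 (0.86) and Tyms (0.81) came next. Of 6 further proliferation and arrest genes, Mki67 was at 0.28, Top2a at 0.14, Cdk1 at 0.06, Cdkn1a at -0.11 and Ccnb1 at -0.24, and the median was 0.00. The DNA replication median turned sign under median centring, to -0.041, and stayed above 0 under the other scalings. The medians for chaperones and histone mRNA processing turned below 0 under median centring and spike-in scaling. The median of the 6 genes was near 0 and below it under each other scaling.

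Histone genes outside the clusters had a median of 0.07 over 11 measured of 18 listed, which was below 0 under median centring, spike-in scaling, quantile normalization and cyclic loess. H2afx, the variant marked at DNA breaks, had 2.47 at passage 20 and 3.52 at passage 5, 2.07-fold lower. H2bfm was above background at passage 20 only, at least 2.98-fold higher. H2afj was at 0.48, H3f3b at 0.11, H2afz at 0.10, H3f3a at 0.06 and H2afy at -0.10, with its probes from -0.52 to 0.53. H1f0, a linker histone of slowly dividing cells, was at -0.25 by its brightest probe, with another probe at -1.80. A probe described as a histone H3 reading frame but outside the Hist names differed by 0.08, with 4.37 at passage 20 and 4.30 at passage 5.

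**Figure D3:**
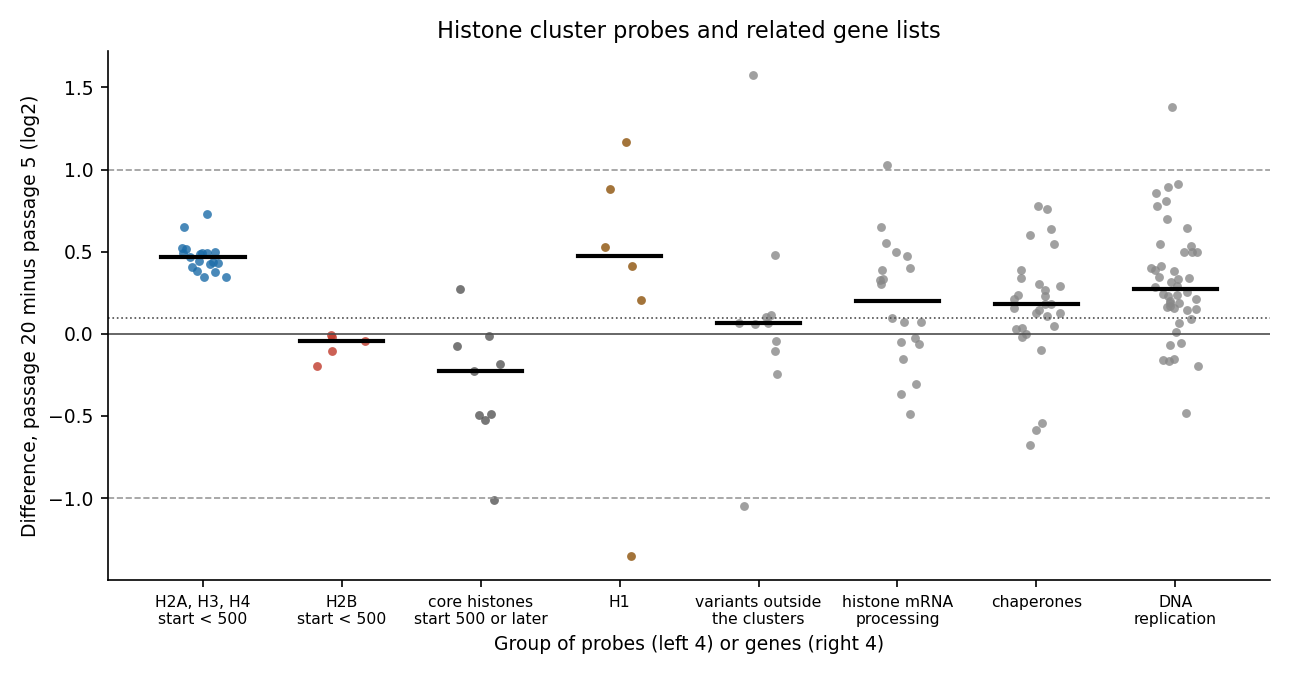
Difference between passages (log2, passage 20 minus passage 5) of histone cluster probes in 4 groups (left) and of genes in 4 related lists (right); each point is a measured probe or gene, thick bars are medians, dashed lines 2-fold and the dotted line the median of all measured gene probes. The group medians are 0.47, -0.04, -0.23 and 0.47, and the list medians 0.07, 0.20, 0.18 and 0.27, from left to right.

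Upstream H2A, H3 and H4 probes stayed apart from upstream H2B probes when the arrays were processed in other ways. The values themselves moved with the scaling. Constant scalings, filters and kept flagged spots could hardly change the gap between these groups. Quantile normalization, cyclic loess, normexp background correction and the authors' deposited table could. There the group medians were 0.32 and -0.11, 0.35 and -0.13, 0.41 and -0.11, and 0.36 and -0.10, in that order. The median of all measured gene probes was 0.10 and ran from -0.21 under median centring to 0.16 with no filter on dim probes. Of all 2-fold calls 55.0% were higher at passage 20, against 27.4% under median centring, 34.9% under spike-in scaling, 39.7% under cyclic loess, 43.98% under quantile normalization, 44.5% in the authors' deposited table and 67.4% with no filter. The median of the 19 upstream H2A, H3 and H4 probes ran from 0.16 to 0.48, and that of the 5 upstream H2B probes from -0.35 to -0.04. Downstream core histone probes ran from -0.54 to -0.05 and H1 probes from 0.16 to 0.63. Downstream core probes had the lowest median of the 4 groups except under normexp background correction, where upstream H2B probes did.

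**Figure D4:**
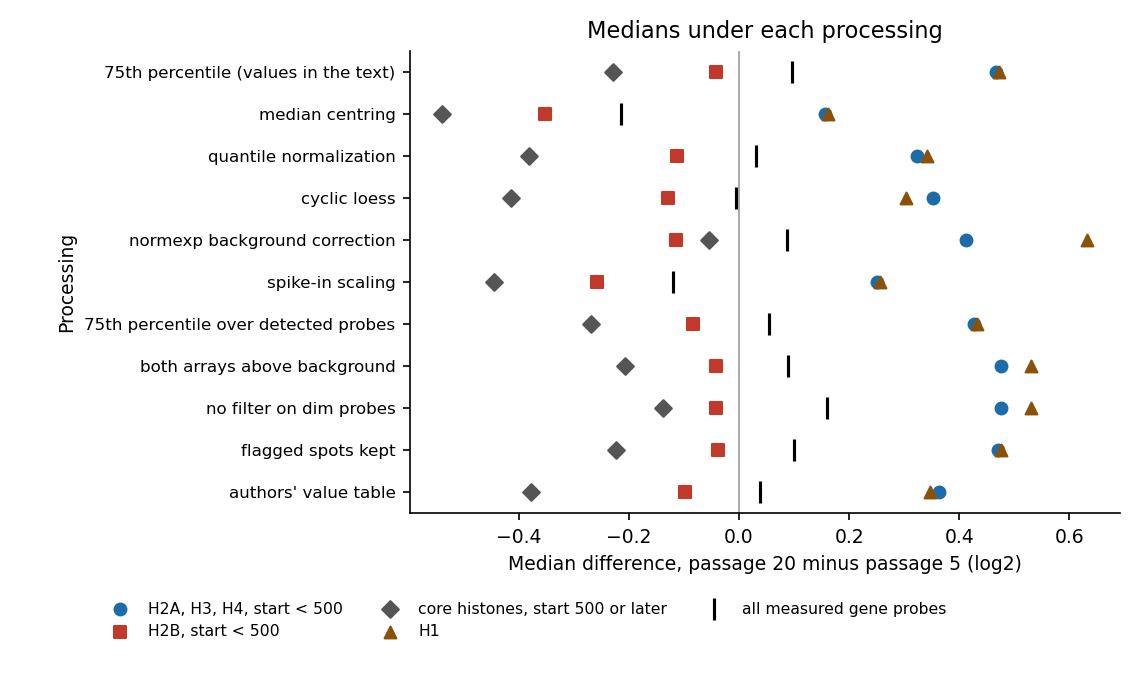
Median difference (log2, passage 20 minus passage 5) of 4 groups of histone cluster probes and of all measured gene probes under each processing, with the values used in the text in the top row. Upstream H2A, H3 and H4 probes stay above 0 (0.16 to 0.48) and upstream H2B probes below 0 (-0.35 to -0.04) in every row.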

How the data were processed

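Per the labels' protocols, RNA from passage 20 and from passage 5 cells was copied into Cy3-labelled cRNA and put on 1 array each. The authors deposited spot intensity as background-subtracted processed signal; per the file headers it was made with Agilent Feature Extraction 10.7.3.1. They also gave raw mean and background intensity. Other deposited columns flag outliers and signal well above background. A deposited value table on the log2 scale tracked the scanner signal (r = 0.99986 for passage 20, 0.99987 for passage 5) and had the same sorted values in both columns (largest gap 0.000609, median 6.31 each). No source used here names its normalization tool.

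Control spots were left out, as were outlier-flagged spots (69 at passage 20, 73 at passage 5). Log2 intensity was averaged per probe, and each array's 75th percentile (signals of 853 at passage 20 and 1085 at passage 5) was subtracted. With 1 array per passage no p-value was computed, and the number of arrays limits the precision. Python 3.11.15, numpy 2.4.6, pandas 2.3.3, matplotlib 3.10.9, R 4.3.3 and limma 3.58.1 were used. The steps were tested on simulated data. Probe positions are the files' own (mm9). Current symbols came from RefSeq, by accession for 39 histone probes and by synonym for 6. Every measured histone probe is named, and from each related list up to 5 members with the largest differences, any at 2-fold and 7 fixed genes (Slbp, Npat, H2afz, H2afx, H3f3a, H3f3b, H1f0). The members, lists and rules were chosen with earlier results of these data known. Alternatives were other scalings, background correction, filters, thresholds, the gene as unit, probes unlike any other histone probe, the mean over probes and the authors' values.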

Additional observations from a re-analysis of the deposited data

How the results depend on the processing

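With 1 array per passage, neither culture nor array variation can be assessed, and passage cannot be told apart from experiment. No paired analysis was possible because each passage has 1 array. The count of 2-fold higher histone probes was 1. It was 0 under median centring, spike-in scaling and a 4-fold threshold, 2 with no filter on dim probes and 4 at 1.5-fold. The count of 2-fold lower histone probes was 2. It was 1 under normexp background correction (offset 50), where Hist3h2ba had -0.98, and 0 at 4-fold. The median difference of histone probes was 0.39. It was 0.21 in the authors' deposited table and under quantile normalization, 0.17 under spike-in scaling and 0.074 under median centring. Under median centring and spike-in scaling, the medians were -0.041 and 0.054 for DNA replication, -0.13 and -0.035 for chaperones, -0.11 and -0.017 for histone mRNA processing, -0.24 and -0.15 for the variants outside the clusters, and -0.31 and -0.22 for the 6 proliferation and arrest genes (0.00 as reported). Both scalings subtract a constant from every probe, and the 7 spike-in probes above background differed by 0.22 after the 75th percentile scaling. Relative to the median of all gene probes, the histone probes lay 0.17 to 0.29 higher under every scaling, background correction, filter and value table tried. Scalings by a constant could hardly change this distance. Of 387 differences of single histone probes under these alternatives, 278 moved by less than 0.159, which is 1.96 times the median repeat-spot SD. That count includes alternatives that could hardly move a value. Filters on dim probes reused the reported differences except at bounds. Keeping flagged spots and scaling over detected probes shifted every histone probe by a small constant. Of the 109 others, 78 moved under median centring and spike-in scaling. Moved under quantile normalization and in the authors' table were 10 of 39 each, and 5 of 39 each under cyclic loess and normexp background correction. The cause of the remaining changes was not tested. Dim probes are limited by signal over background: 6 of 45 were above it on neither array.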
